A study of Mus musculus with 2 samples.

Results

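The chromatin contacts of the Ccl2 promoter were profiled in primary mouse bone marrow-derived macrophages by 4C-seq, an assay in which cross-linked DNA is cut, ligated and amplified outwards from a chosen fragment, the viewpoint, so that reads elsewhere on the chromosome count ligation to it. The profile is the 1 library whose viewpoint is labelled as the Ccl2 transcription start site, and it comprises all fragment ends of chromosome 11 that occur at 1 place in the genome and lie 5 kb or more from position 81848193 (mm9), 424567 of the 921254 such ends in both libraries of the study. The other library, with the Jun start site as viewpoint on chromosome 4, holds 496687 ends and is set beside it only for distance. Both came from untreated C57BL/6 cells, grown in medium conditioned by L929 cells and labelled as day 7 of differentiation, with no genotype or agent that differs between them. The number of mice is not stated in the labels, each viewpoint has 1 library, and no difference between cultures can be estimated. 4C-seq measures no transcripts, so the labelled cell type could not be checked against its markers.

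As background, Ccl2 encodes a chemokine that draws monocytes to sites of inflammation, and macrophages are among its main sources. It is the first gene of a small cluster of CC chemokine genes, which bind related receptors on leukocytes and which lie side by side on chromosome 11. A promoter is usually ligated most often to its immediate surroundings, and contact falls with distance, less steeply within the same folded domain and towards chromatin of a similar activity state.

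The Ccl2 library held 1248937 reads on unique ends, 20.7% of them on the single end with the most reads and 27.8% within 5 kb of the viewpoint. The remaining 901507 reads lay on 8145 ends, 1.92% of the ends used, against 9507 ends with a read in the Jun library. Because the protocol names no molecular identifiers, the main measure is the share of ends with at least 1 read, called coverage here. Its intervals are exact binomial (Clopper-Pearson) 95% intervals, which cover counting error within 1 library only. Where no end had a read, the limit given is instead 3 ends of the number measured. "Lower" and "higher" refer to mm9 coordinates, and the lower side is upstream of Ccl2.

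Genes were placed by their distance from Ccl2 in GRCm38.p6, and this placement was checked on the fragment map itself. The first cutter, DpnII, cuts at GATC, so each GATC in a RefSeq promoter sequence should meet a fragment boundary in the deposited file if the distances hold in mm9. With 1 constant shift, all 59 GATC sites in promoters within 2000 kb of Ccl2 met a boundary within 16 bp (largest distance 7.75 bp), whereas other shifts within 50 kb matched at most 17 and in the median 5. Gene distances were therefore the same in both builds over this range, within the resolution of the file. On this scale the Ccl2 gene starts 0.876 kb from the centre of the viewpoint fragment and ends at 2.75 kb, inside the zone left out. The fragment taken as the viewpoint is the one whose end has the most reads. It is 306 bp long and does not hold the start site. Reads alone do not show that it is the fragment chosen in the assay.

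The promoters of 5 landmark genes along the profile are printed here, as the 250 bases before the start site in RefSeq (GRCm38.p6). Each is given 5′ to 3′ on the strand of its gene, with GATC in capitals. GATC, which reads the same on both strands, occurs in 41.9% of the 32851 promoter stretches of this length in the table. Asic2 (chr11:81968397-81968646 on the minus strand) marks the near end of the gene on the lower side, Ccl12 (chr11:82101595-82101844 on the plus strand), Ccl8 (chr11:82114935-82115184 on the plus strand) and Ccl1 (chr11:82179813-82180062 on the minus strand) belong to the chemokine cluster, and Lig3 (chr11:82780859-82781108 on the plus strand) lies in the far covered stretch of the higher side.
Asic2: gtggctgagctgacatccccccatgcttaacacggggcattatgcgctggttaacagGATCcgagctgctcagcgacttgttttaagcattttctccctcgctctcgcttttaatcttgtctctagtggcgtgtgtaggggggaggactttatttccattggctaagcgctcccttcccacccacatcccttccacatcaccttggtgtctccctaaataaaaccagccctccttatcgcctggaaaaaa
Ccl12: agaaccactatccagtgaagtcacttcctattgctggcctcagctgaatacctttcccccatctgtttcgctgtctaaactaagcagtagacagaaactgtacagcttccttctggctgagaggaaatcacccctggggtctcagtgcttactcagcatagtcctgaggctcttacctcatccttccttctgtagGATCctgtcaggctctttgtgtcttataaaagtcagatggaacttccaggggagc
Ccl8: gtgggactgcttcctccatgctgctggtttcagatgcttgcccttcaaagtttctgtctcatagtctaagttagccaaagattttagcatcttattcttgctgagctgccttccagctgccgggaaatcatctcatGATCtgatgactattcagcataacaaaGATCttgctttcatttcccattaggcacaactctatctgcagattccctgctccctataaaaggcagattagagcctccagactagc
Ccl1: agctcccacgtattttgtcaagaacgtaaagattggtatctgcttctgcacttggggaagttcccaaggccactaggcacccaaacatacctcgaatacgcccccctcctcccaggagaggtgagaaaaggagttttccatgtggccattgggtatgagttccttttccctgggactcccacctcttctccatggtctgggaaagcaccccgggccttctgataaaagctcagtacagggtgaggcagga
Lig3: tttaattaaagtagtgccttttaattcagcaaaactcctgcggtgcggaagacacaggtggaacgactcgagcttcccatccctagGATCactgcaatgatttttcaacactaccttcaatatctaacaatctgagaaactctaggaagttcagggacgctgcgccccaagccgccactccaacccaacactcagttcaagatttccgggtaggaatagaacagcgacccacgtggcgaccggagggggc

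The reads on the fragments that overlap these sequences differed widely between promoters, and also between the 2 ends of a fragment. The Ccl1 sequence holds no GATC and lies in 1 fragment of 1353 bp (centre 81993249), whose ends had 2 and 1380 reads. The Ccl12 fragment that starts at the printed site (centre 81915393, 202 bp) had 57 and 268 reads on its ends. The fragment with the bases before that site (centre 81914897, 788 bp) has no unique end, so it was not measured. Both sites of Ccl8 bound a fragment of 27 bp without a read, and the fragments on its 2 sides had 95 and 175 reads in all. At Asic2 the fragment of 299 bp had 14 reads on 1 of its ends and the neighbouring one of 1151 bp had none. At Lig3, 746 kb away, the fragments on either side of the site had 17 and 121 reads.

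Around the promoter the densest contact lay in the space between Ccl2 and Asic2 and across the chemokine genes. Between 5 kb and the near end of Asic2 at 66.3 kb on the lower side, 244 of 266 ends had a read (91.7%, 87.7 to 94.7%), with 199441 reads and a median of 184.5 reads per end. From 5 kb on the higher side to the end of Ccl1 at 145 kb, 489 of 578 ends had a read (84.6%, 81.4 to 87.4%), with 169769 reads and a median of 67 reads per end. Both stretches were thus almost filled, but they differ in length. Over the same 5 to 66.3 kb the higher side had 122825 reads on 306 ends, fewer reads than the lower side. From 20 to 100 kb the medians were alike, at 56.5 reads per end on the lower and 57 on the higher side. In 10 kb windows the median fell on the lower side from 540 reads per end at 10 to 20 kb to 140.5 at 40 to 50 kb, 24 at 60 to 70 kb and 4 at 70 to 80 kb, the windows that meet Asic2. It was 0 at 80 to 90 kb and 42 at 90 to 100 kb. On the higher side it was 381 at 10 to 20 kb and already 114 at 20 to 30 kb, and then stayed between 17.5 and 147 in every window out to 160 kb.

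**Figure D1:**
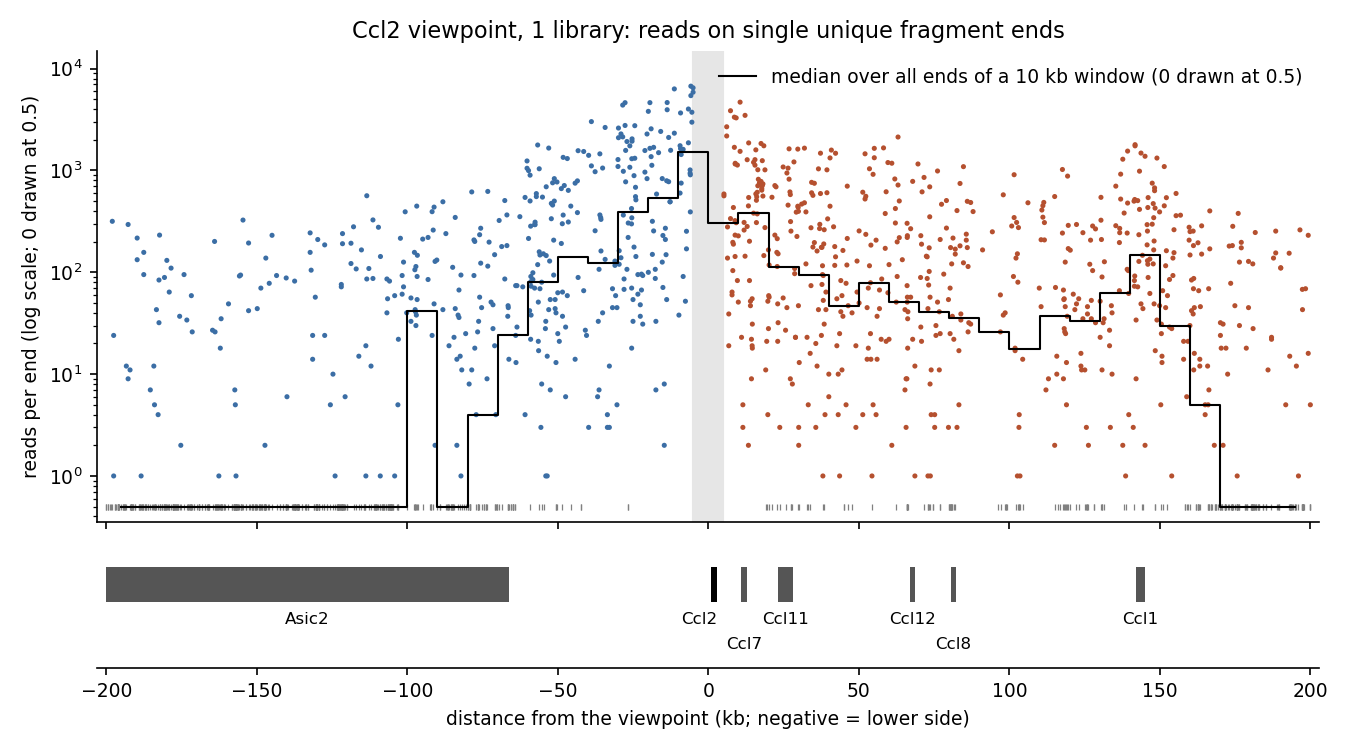
Reads on each unique fragment end (points, log scale, ends with no read as ticks drawn at 0.5) against distance from the Ccl2 viewpoint in kb, with the median over 10 kb windows as a line and genes as bars below. The grey band is the zone left out, so the windows next to it hold ends from 5 to 10 kb only. On the higher side the line stands at 147 reads per end from 140 to 150 kb, at Ccl1, and at 5 from 160 to 170 kb.

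All 5 neighbouring chemokine genes lay inside the covered zone, at unequal levels. Ccl7, which encodes a monocyte-attracting chemokine and starts at 11.01 kb, had a read on 31 of 31 ends of the gene with 2 kb on either side (88.8 to 100%) and a median of 144 reads per end. At Ccl11, the eotaxin gene at 23.1 kb, 42 of 51 ends had a read (82.4%, 69.1 to 91.6%) and the median was 109. These neighbours of Ccl2 were followed by a less densely read middle of the cluster. Ccl12, a further monocyte-attracting chemokine gene at 67.1 kb, had 24 of 30 ends covered (80.0%, 61.4 to 92.3%) and a median of 32. Ccl8, whose product attracts monocytes and other leukocytes, lies at 80.5 kb and had the lowest values of the 5, with 21 of 32 ends (65.6%, 46.8 to 81.4%) and a median of 23.5.

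Ccl1, the farthest chemokine gene of the cluster, did not continue this fall. It encodes the ligand of the receptor CCR8 and spans 142 to 145 kb. Of its 35 ends 32 had a read (91.4%, 76.9 to 98.2%), with 12542 reads and a median of 130 per end, above the medians of Ccl11, Ccl12 and Ccl8. The 10 kb window at 140 to 150 kb, which holds its start site, had 18496 reads and a median of 147, against 62 in the window before it and 30 in the window after it. No single end made this value, since the strongest held 9.69% of the window's reads. Coverage of Ccl1 exceeded that of the flanking 100 kb on each side (55.0%, 51.5 to 58.4%), with intervals that did not overlap. Its inner flank lies within the covered zone and its outer flank mostly beyond it, so this ratio of 1.66 mixes a near and a far side. Past Ccl1 the strongest ends lay at 147 to 151 kb (1325 reads at 81997201, 1093 at 81999633 and 751 at 81995633). Coverage then fell to 57.1% at 160 to 170 kb, 40.4% at 170 to 180 kb and 25.7% at 180 to 190 kb, and was 35.9% (14 of 39 ends) at 190 to 200 kb.

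On the lower side the covered zone ended inside Asic2, a gene of more than 1 Mb that encodes an acid-sensing ion channel best known from neurons. Asic2 spans 66.3 to 1155 kb from the viewpoint. Over its body 406 of 4721 ends had a read (8.60%, 7.82 to 9.44%), with 36509 reads. The first 100 kb of the gene, from its near end, had 35.5% of ends covered (31.0 to 40.3%) and 47.4% of the reads of the whole body. The next pieces of 100 kb had 17.1%, 9.15% and 11.5%, and the fifth, from 466 to 566 kb, had 3.25% (1.74 to 5.49%). From there to its far end the pieces held between 0.922% and 3.59%. The lowest was the piece from 766 to 866 kb, where 4 of 434 ends had a read (0.25 to 2.34%).

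Contact along Asic2 therefore did not fall evenly. In 50 kb windows, coverage was 9.30 to 20.0% in the 6 windows from 150 to 450 kb and 0.816 to 3.85% in the 13 windows from 450 to 1100 kb. These bounds are not among the planned stretches and classes, so the ranges do not test for a break at 450 kb. Within the nearer range coverage fell from 20.0% at 150 to 200 kb to 9.30% at 300 to 350 kb, before it rose again. The windows on either side of 450 kb had 12.7% (28 of 220 ends, 8.63 to 17.9%) and 3.59% (7 of 195 ends, 1.46 to 7.26%). Asic2 has 2 start sites in the promoter table. Within 5 kb of the near one, at 66.3 kb, 20 of 39 ends had a read (51.3%, 34.8 to 67.6%), and within 5 kb of the inner one, at 882 kb, 0 of 31 had one, which allows a share of up to 9.68%. 1700071K01Rik, a small gene at 461 kb that lies within the span of Asic2, had a read on 0 of 20 ends (up to 15.0%), and its flanks had 7.61%.

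Beyond Asic2 the lower side rose again. From the far end of Asic2 to Zfp207, 121 of 1770 ends had a read (6.84%, 5.70 to 8.11%), against 2.51% (1.95 to 3.17%) from 450 to 1100 kb, nearer to the promoter. The rise was gradual: 5.44% from 1100 to 1500 kb (4.35 to 6.71%) and 9.72% from 1500 to 1650 kb (7.28 to 12.6%), before 4.18% from 1650 to 2000 kb (3.13 to 5.46%). The highest window, at 1550 to 1600 kb, had 20 of 150 ends covered (13.3%, 8.34 to 19.8%).

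Of the genes in this stretch, Psmd11, which encodes a proteasome subunit and lies at 1561 to 1606 kb, stood highest, with 17 of 135 ends (12.6%, 7.51 to 19.4%) and 1285 reads. Cdk5r1, the gene of an activator of the kinase Cdk5, had 4 of 39 ends covered (10.3%). Zfp207, a zinc finger gene, had 9 of 120 (7.50%), and Myo1d, an unconventional myosin gene of 298 kb, had 63 of 992 (6.35%, 4.91 to 8.05%). Tmem98, a membrane protein gene, and Spaca3, a sperm acrosome gene, lie just past Asic2 and had 3 of 82 (3.66%) and 1 of 70 (1.43%). The intervals of all 6 genes overlapped, those of Spaca3 (0.036 to 7.70%) and Psmd11 only narrowly.

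**Figure D2:**
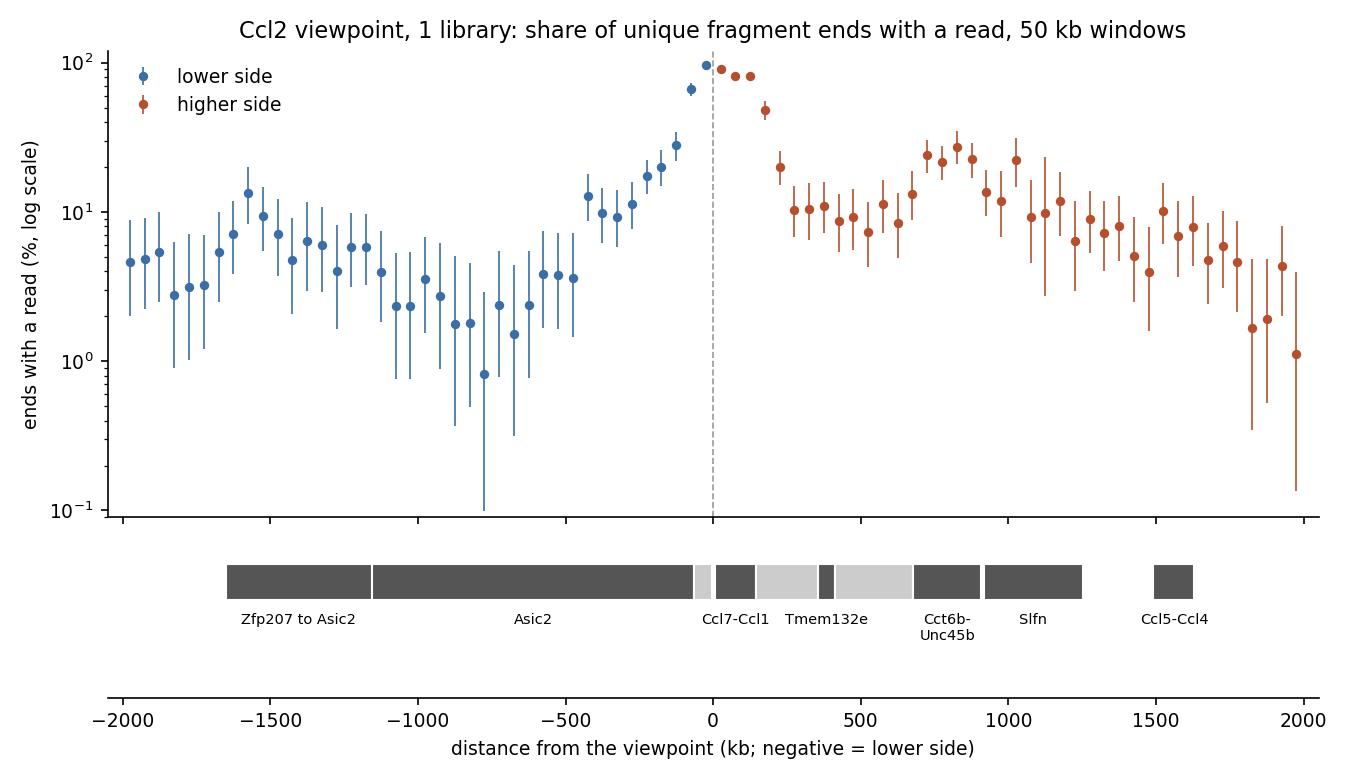
Share of unique fragment ends with a read in 50 kb windows (points, percent on a log scale, bars are exact 95% intervals) against distance from the Ccl2 viewpoint in kb, with the landmark stretches below (grey bars without a name are the gene-poor stretches between them). Coverage is lowest on the lower side at 0.816% from 750 to 800 kb, inside Asic2, and on the higher side it passes from 7.37 to 11.2% between 250 and 650 kb to 21.6 to 27.4% between 700 and 900 kb.

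Beyond the chemokine genes, coverage on the higher side fell through a gene-poor stretch to a low and even level. From Ccl1 to Tmem132e, 227 of 937 ends had a read (24.2%, 21.5 to 27.1%). The first 100 kb had 172 of 467 ends covered (36.8%, 32.4 to 41.4%) and 89.2% of the reads of the stretch, and the rest had 55 of 470 (11.7%, 8.94 to 15.0%). The 8 windows of 50 kb from 250 to 650 kb ranged only from 7.37% to 11.2%, with 161 of 1678 ends covered in all (9.59%, 8.23 to 11.1%). Tmem132e, a membrane protein gene linked to hearing at 354 to 413 kb, was no exception. Its body had 28 of 256 ends covered (10.9%, 7.39 to 15.4%) and 2357 reads, 19.6% of them on 1 end at 82253729. The stretch from Tmem132e to Cct6b had 102 of 1096 (9.31%, 7.65 to 11.2%).

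At the gene cluster from Cct6b to Unc45b, 678 to 909 kb from the promoter, coverage rose above that of the nearer gene-poor stretch. There 204 of 929 ends had a read (22.0%, 19.3 to 24.8%), 2.36 times the share between Tmem132e and Cct6b, with 15907 reads against 5825. The strongest end held 2.16% of the reads, and the 3 strongest 5.99%. At the same distances on the lower side, inside Asic2, 19 of 965 ends had a read (1.97%, 1.19 to 3.06%), and the ratio between the sides was 11.2 by ends and 8.48 by reads. The 4 windows of 50 kb from 700 to 900 kb had 21.6 to 27.4%.

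The genes of this cluster are of diverse function. Rad51d, a recombination repair gene at 837 to 856 kb, had 27 of 87 ends covered (31.0%, 21.5 to 41.9%), and Nle1, a ribosome assembly gene, had 14 of 46 (30.4%, 17.7 to 45.8%). Rffl, a ubiquitin ligase gene, had 64 of 240 (26.7%, 21.2 to 32.7%), and Lig3, the gene of a DNA ligase used in repair, had 40 of 161 (24.8%, 18.4 to 32.3%). Lower values were those of Unc45b, a myosin chaperone gene, with 34 of 174 (19.5%), Zfp830, a zinc finger gene, with 8 of 41 (19.5%), Fndc8 with 9 of 47 (19.1%) and Cct6b, a chaperonin subunit gene, with 38 of 221 (17.2%, 12.5 to 22.8%). The intervals of Cct6b and Rad51d overlapped, as did those of all other pairs of the 8 genes. Around start sites, within 5 kb on either side, the highest of the cluster was Lig3, with 17 of 41 ends (41.5%, 26.3 to 57.9%), followed by the farther of the Rffl starts in the table with 16 of 43 (37.2%, 23.0 to 53.3%). Fndc8 had 6 of 39 (15.4%). Rad51d has no start site in the promoter table, so it is not part of this order.

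Coverage fell again across the Schlafen genes, a family with roles in immune cells and in the defence against viruses. Their stretch at 917 to 1252 kb had 96 of 794 ends covered (12.1%, 9.90 to 14.6%), below the cluster before it and above the mirrored distances on the lower side (3.75%, 2.83 to 4.85%). The stretch is poor in unique ends, 2.37 per kb against 4.03 from Cct6b to Unc45b, and 40.9% of its ends have several copies in the genome against 12.8%. With those ends included its coverage was 16.7%. Schlafen genes are near copies of each other, so single members were measured without their ends of several copies. Slfn2 rests on 23 unique ends and the others on 59 to 79.

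Slfn2 stood out among them by its value, with 8 of 23 ends (34.8%, 16.4 to 57.3%) at 1030 kb, although 44.9% of its 738 reads lay on 1 end. Its interval overlapped those of all other Schlafen genes, that of Slfn4 (2.47 to 16.6%) only narrowly. The other 7 ran from 7.46% (Slfn4, 5 of 67 ends) to 16.9% (Slfn9, 10 of 59 ends). In order of distance, Slfn5 had 14.5%, Slfn8 10.5%, Slfn1 11.7%, Slfn3 12.1% and Slfn14 10.1%, and their intervals overlapped. The window that holds Slfn2, at 1000 to 1050 kb, had 23 of 104 ends covered (22.1%, 14.6 to 31.3%), between neighbours at 11.8% and 9.26%.

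The chromosome's second chemokine cluster, 1491 to 1630 kb from Ccl2, had a coverage close to that of the same distances on the lower side. How far it exceeded its own side depended on the range compared. It had 42 of 470 ends covered (8.94%, 6.52 to 11.9%) and 2997 reads, against 49 of 462 (10.6%, 7.95 to 13.8%) in the mirrored stretch, which falls on the rise of the lower side around Psmd11. All ends of the higher side from 1250 to 2000 kb, the cluster included, had 5.47% (158 of 2886, 4.67 to 6.37%). Those from 1000 to 2000 kb, which take in Schlafen genes too, had 6.44% (5.64 to 7.32%), an interval that overlaps that of the cluster. Ccl6 had 5 of 37 ends (13.5%), Ccl3, the gene of a macrophage inflammatory protein, 2 of 17 (11.8%), Ccl4, a further one, 7 of 69 (10.1%) and Ccl9 4 of 45 (8.89%). Ccl5, which encodes a chemokine for T cells and monocytes, had a read on 0 of 22 ends, which allows a share of up to 13.6%. Ccl3 and Ccl4 adjoin and share ends. The intervals of the 5 genes overlapped.

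**Figure D3:**
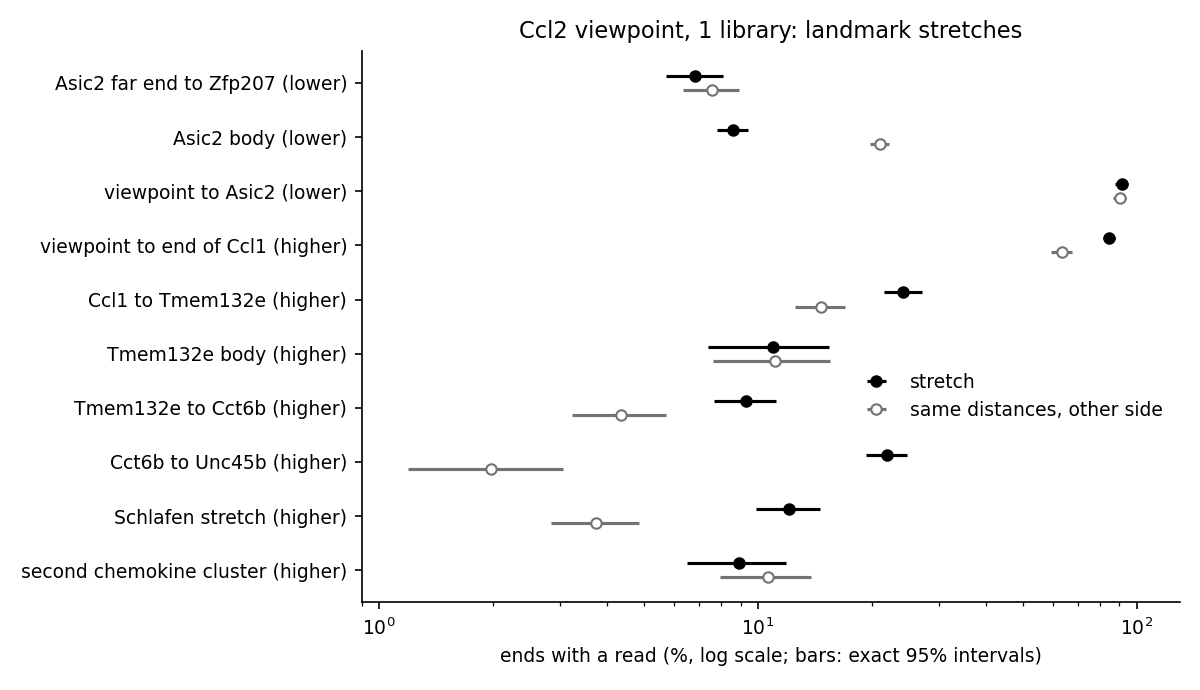
Share of unique fragment ends with a read (percent, log scale) in each landmark stretch of the Ccl2 profile (filled) and at the same distances on the other side (open), with exact 95% intervals. Cct6b to Unc45b stands at 22.0% against 1.97% at the mirrored distances, whereas Tmem132e (10.9% and 11.1%) and the second chemokine cluster (8.94% and 10.6%) lie within the intervals of their mirrors.

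Whether coverage followed single genes was asked by setting each gene, with 2 kb on either side, against 100 kb on each flank. Of the 112 genes within 2000 kb with at least 10 unique ends, 55 (49.1%) lay above their flanks and 9 (8.04%) reached 2 times their flanks with at least 3 ends covered. Of the 35 landmark genes 18 lay above their flanks, near the background share of 49.1%. Only 1 of the 35, Slfn2 (2.72 times), reached 2 times, against 8.04% of all genes tested. The 5 neighbouring chemokine genes could not reach 2 times, since their flanks had 55.0 to 85.4% of ends covered. The near flank of Asic2 lies in the covered zone around the viewpoint, so its ratio mixes a near and a far side. By list, 2 of 5 neighbouring chemokine genes, 5 of 8 genes from Cct6b to Unc45b, 3 of 8 Schlafen genes, 4 of 5 genes of the second chemokine cluster and 3 of 6 genes from Spaca3 to Zfp207 lay above their flanks. Tmem132e did so too (1.21 times), and neither Asic2 nor 1700071K01Rik did. The median ratio was 1.57 for the second chemokine cluster, 1.12 for the genes from Cct6b to Unc45b, 0.96 for the neighbouring chemokine genes and 0.98 for all genes tested. Of other genes, the highest ratios were those of Rpl9-ps1, a pseudogene between Ccl6 and Ccl3 (4.84 times, 4 of 13 ends), Ddx52, an RNA helicase gene at 1907 kb (3.51 times, 7 of 124 ends), and Gm11418, a long non-coding RNA gene within Asic2 at 441 kb (2.47 times, 9 of 49 ends). Gm20234, also among the 9, lies inside Slfn2 and shares its ends, so it is not a separate call.

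**Figure D4:**
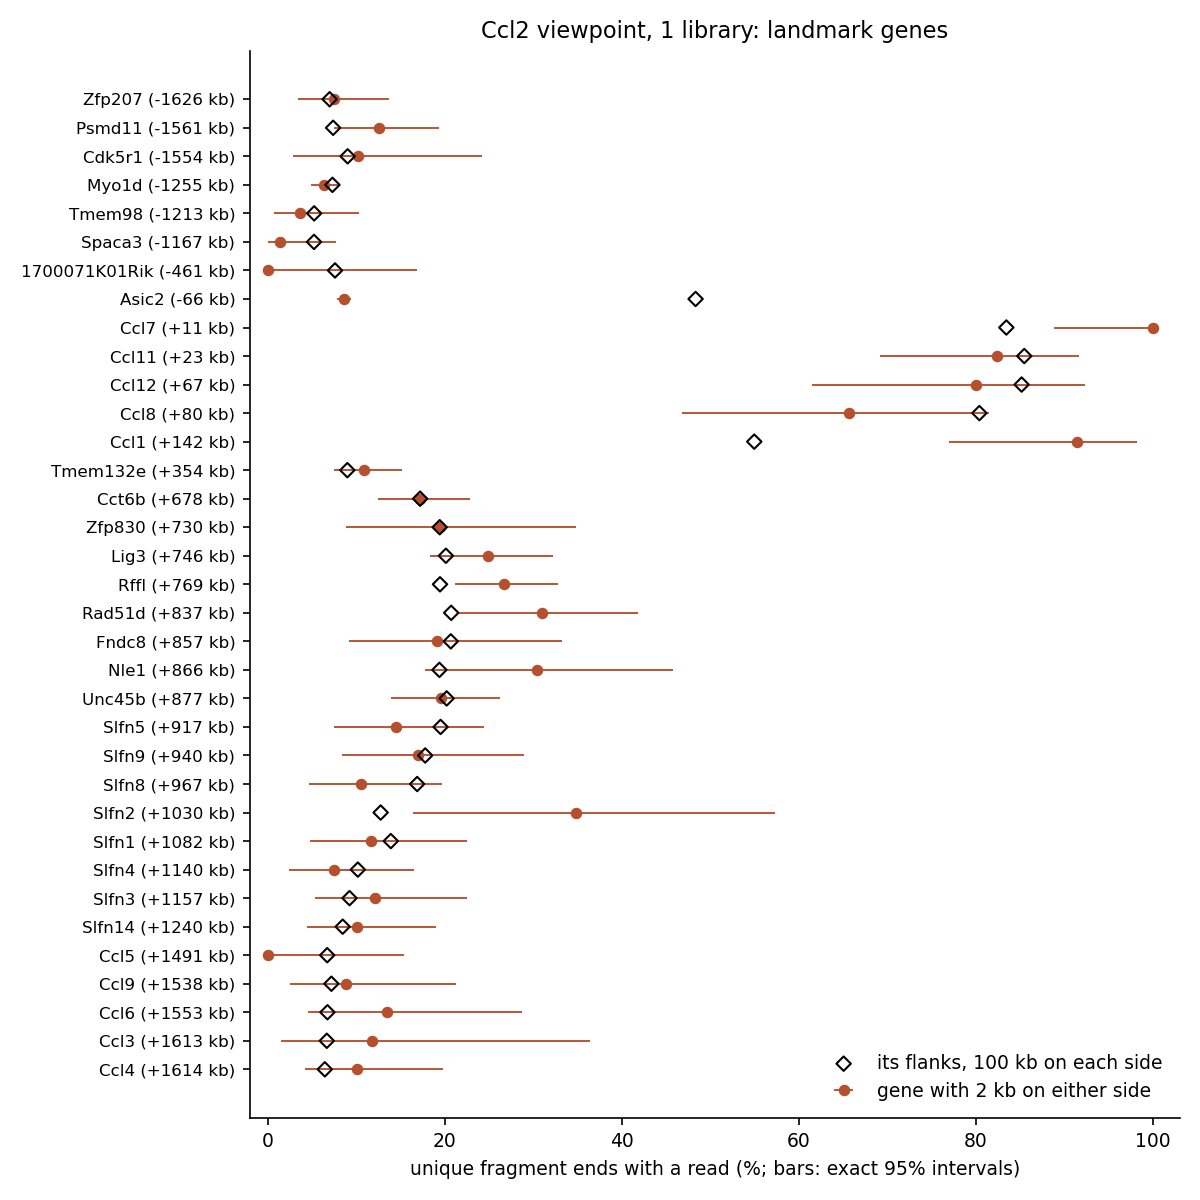
Share of unique fragment ends with a read in each of the 35 landmark genes with 2 kb on either side (points, percent, exact 95% intervals) and in 100 kb on each of its flanks (diamonds), in order of distance from the Ccl2 viewpoint. Ccl1 (91.4%) and Slfn2 (34.8%) lie above their flanks (55.0% and 12.8%), whereas most genes lie beside theirs. The interval of Slfn2 (8 of 23 ends, 16.4 to 57.3%) narrowly overlaps that of its flanks (9.56 to 16.6%).

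Coverage inside and outside protein-coding genes differed on the higher side in the class from 500 to 1000 kb. There 206 of 1021 ends inside genes had a read (20.2%, 17.8 to 22.8%) and 108 of 929 outside (11.6%, 9.63 to 13.9%). All genes of that class lie beyond 678 kb. Over that distance alone, from Cct6b to 1000 kb, the ends outside genes had 18.1% (35 of 193, 13.0 to 24.3%), and nearer ones, from 500 kb to Cct6b, had 9.92% (73 of 736, 7.86 to 12.3%). The intervals inside genes (20.2%, 17.8 to 22.8%) and outside them thus overlapped over the same distance. From 1000 to 2000 kb the shares were 6.50% (5.42 to 7.71%) inside and 6.38% (5.21 to 7.72%) outside on the higher side, and 4.95% (4.20 to 5.80%) and 6.47% (4.78 to 8.54%) on the lower side.

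By distance class the sides of Ccl2 parted most between 500 and 1000 kb. The higher side exceeded the lower by 7.26 percentage points from 20 to 100 kb (interval from both exact intervals 0.946 to 13.5), by 9.96 from 100 to 500 kb (7.34 to 12.6), by 13.7 from 500 to 1000 kb (11.9 to 15.5) and by 1.20 from 1000 to 2000 kb (0.084 to 2.32). The size of these differences moved with the ends used. From 20 to 100 kb the interval took in 0 with at least 3 reads per end (6.26, -0.27 to 12.7), with fragments in place of ends (5.87, -0.94 to 12.7) and on fragments with a second-cutter site (3.49, -3.33 to 10.01). By reads the order in this class was reversed, with 109013 on 338 ends of the lower side and 75285 on 323 ends of the higher. In the classes from 100 to 2000 kb reads too were more numerous on the higher side. From 1000 to 2000 kb the difference was 3.08 with ends of several copies, 2.81 on fragments with a second-cutter site, 2.13 with whole fragments and 1.86 without fragments under 200 bp. From 500 to 1000 kb it was 22.2 on fragments with a second-cutter site. Farther out the order of distance was broken on the lower side, where coverage was 1.13% from 2 to 5 Mb (0.940 to 1.34%) and 2.20% from 5 to 10 Mb (1.99 to 2.43%). On the higher side these classes had 2.38% (2.10 to 2.68%) and 2.19% (1.98 to 2.41%). The Jun library had 0.585% and 1.80% on its lower side and 2.79% and 1.70% on its higher side in the same classes. From 500 to 1000 kb it had 4.05% and 76.9%, so its sides parted by more. Lower and higher are only coordinate order on different chromosomes, so the higher side need not be the same side of each gene.

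The number of reads on a covered end carried little of this pattern beyond the near zone. The median over ends with a read was 870 on the lower and 356 on the higher side from 5 to 20 kb, and 116 and 105.5 from 20 to 100 kb. In every class beyond 100 kb, out to more than 10 Mb, it lay between 38 and 66, although coverage there ranged from 1.13% to 24.2%. It was 50.5 from Cct6b to Unc45b and 39.5 in the gene-poor stretch before it. Where contacts were sparse, 1 end of a fragment was usually caught without the other. Of fragments with 2 unique ends and at least 1 read, 73.7% on the lower and 78.5% on the higher side had reads on both ends from 20 to 100 kb, 12.3% and 35.0% from 100 to 500 kb, and 0 of 44 fragments and 13.7% from 500 to 1000 kb.

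**Figure D5:**
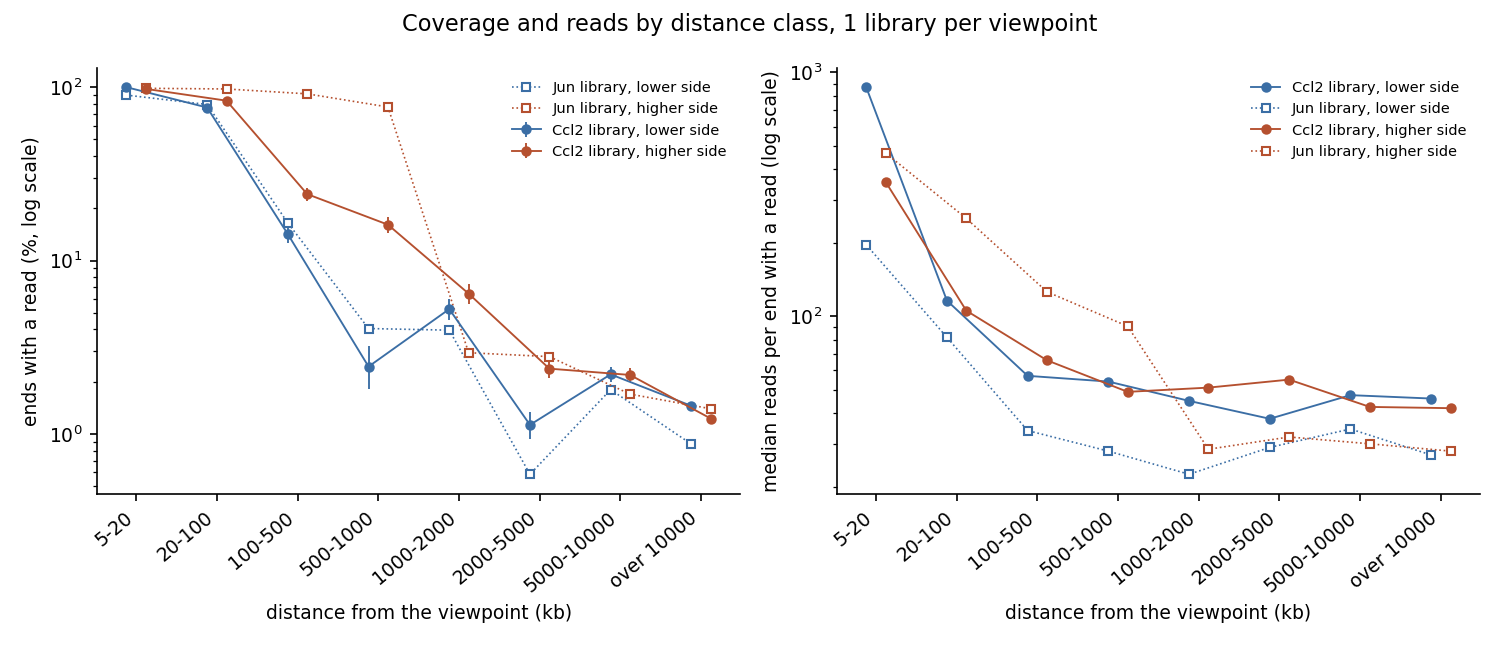
Share of unique ends with a read (left, percent, log scale, exact 95% intervals for Ccl2) and median reads per end with a read (right, log scale) by distance from the viewpoint in kb, for each side of the Ccl2 library (filled) and the Jun library (open), 1 library each. For Ccl2 the left panel falls from 100% and 97.8% to 1.45% and 1.23%, and the right panel stays between 38 and 66 beyond 100 kb.

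Detection also moved with the structure of the fragments. Fragments without a site of the second cutter, which held 55.1% of the ends used, were covered less often: 8.08% against 22.5% from 100 to 500 kb on the lower side, and 9.11% against 26.2% from 500 to 1000 kb on the higher side. The share of such ends was 57.3% from Cct6b to Unc45b and 59.9% in the gene-poor stretch before it. On fragments with a site alone, these stretches had 34.0% (29.4 to 38.9%) and 14.5% (11.4 to 18.2%), a ratio of 2.34, and the viewpoint to Ccl1 had 95.3% (91.5 to 97.7%). Ends of fragments under 100 bp were covered in 5.45% of cases from 500 to 1000 kb on the higher side, and those of fragments of 400 bp or more in 20.2%.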

How the data were processed

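The authors deposited 1 file per library with estimated counts of reads on the 2 ends of each DpnII fragment, in 16 bp bins of the viewpoint chromosome. Per the submitters' processing notes, coordinates are those of mm9. The aligner, and any weighting of reads, were not given in the sources used here. Per the labels' protocols, chromatin was fixed in 2% formaldehyde for 10 min, cut with DpnII and then Csp61, and 8 PCRs of 200 ng template were pooled. Each header name is displaced from its values by 1 column. No scaling of the deposited counts is recorded in the labels or headers, and 70.3% of values from 0.05 to 10 lie within 0.1 of a whole number. They were rounded, and an end with 1 read or more was covered. Per the file headers, further columns give a copy number per end (a deposited score), used to keep ends with 1 copy, and fragment lengths. A fragment holds a second-cutter site where the length to that site does not exceed its own, and both length columns said the same for all 295189 fragments.

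Distances run from fragment centres to the viewpoint, the centre of the fragment with the highest end. No test between samples could be made, since a viewpoint has 1 library. Intervals cover counting error only, and PCR copies are not independent molecules. Python 3.11.15, scipy 1.17.1 and matplotlib 3.10.9 were used, and the interval and placement code was tested on simulated data.

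Named genes are all members of 7 lists (35 genes, each found in the gene table, 27 of them in the promoter table), the 3 other genes with the highest ratio to their flanks, and the 3 strongest ends of a stretch. The members and lists were chosen with earlier results of these data known. Recomputed settings were at least 3 reads, ends with several copies, whole fragments, fragments of 200 bp or more, gene distances moved by 10 kb, and fragments with a second-cutter site. Genes at 2 Mb or more were not analysed here.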

Additional observations from a re-analysis of the deposited data

Results flagged for a closer look

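Ends with several copies in the genome, which enter none of the main values, also carried reads. Between 5 and 2000 kb from the Ccl2 viewpoint 17.5% of them had a read (344 of 1968 ends, 15.8 to 19.2%, 34130 reads), against 13.8% of unique ends (2129 of 15468, 13.2 to 14.3%). Of the 1968 ends 550 lie in the Schlafen stretch, so these shares are not matched for position. Which copy a read came from cannot be told from the file, and the level is above the limit that a count of 0 would allow.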

How the results depend on the processing

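Of 86 recomputed values 51 stayed within the interval of the reported value, or within 1.5 times it for the count of genes. The other 35 moved. Only the 20 side differences could turn their sign, and 0 of them did. At least 3 reads in place of 1 moved none, although the interval of the difference from 20 to 100 kb then took in 0, as it did with fragments and on fragments with a second-cutter site. Counting fragments in place of ends gave 11.41% from Asic2 to Zfp207, 13.91% for Asic2, 95.17% from the viewpoint to Asic2, 92.88% to Ccl1, 34.52% from Ccl1 to Tmem132e, 19.42% for Tmem132e, 16.5% from there to Cct6b, 32.91% from Cct6b to Unc45b, 17.68% for the Schlafen stretch and 15.02% for the second chemokine cluster, and a side difference of 20.36 points from 500 to 1000 kb. Without fragments that hold no second-cutter site, an alternative added after seeing the data, the same values were 10.37%, 13.08%, 97.56%, 95.31%, 38.04%, 19.8%, 14.55%, 34.01%, 20.0%, 13.78% and 22.19 points, and 2.81 points from 1000 to 2000 kb. Without fragments under 200 bp, 8.718% from Asic2 to Zfp207, 10.34% for Asic2, 89.37% to Ccl1, 29.68% from Ccl1 to Tmem132e, 26.97% from Cct6b to Unc45b, 15.34% for the Schlafen stretch and 16.89 points from 500 to 1000 kb were found. All 3 settings drop or merge ends that are rarely read. With ends of several copies the Schlafen stretch had 16.74% and the difference from 1000 to 2000 kb was 3.083 points. With gene distances moved by 10 kb the viewpoint to Asic2 had 94.98%, Ccl1 to Tmem132e 19.61%, and 4 genes reached 2 times their flanks in place of 9, 1 of them shared; the other settings gave 6 to 10. Cct6b to Unc45b stood at 1.99 to 2.44 times the gene-poor stretch before it under every setting run. With the 10 kb move it also stood above Ccl1 to Tmem132e (21.86% against 19.61%). The Schlafen stretch lay above Tmem132e except when fragments were counted, and the second chemokine cluster above the gene-poor stretch only with 3 reads or several copies. No paired analysis was possible because each viewpoint has 1 library.

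With 17 to 45 unique ends, the intervals of Ccl5, Ccl3, Ccl6 and Ccl9 take in the shares of their flanks.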
